A study of Mus musculus with 31 samples.

Results

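The Reg genes encode a family of small secreted C-type lectins. They were taken from the deposited tables by gene symbol, and all 7 mouse members looked for (Reg1, Reg2, Reg3a, Reg3b, Reg3d, Reg3g and Reg4) were present among the 38283 genes listed. Reg proteins carry a signal peptide and 1 lectin-like domain and are released by exocrine and gut epithelial cells. In the pancreas Reg1 is a product of acinar cells, the cells that make digestive enzymes. Reg3b, also called pancreatitis-associated protein, is known for its rise in acinar cells during pancreatitis, downstream of cytokines that act through gp130 and STAT3. Extl3, a glycosyltransferase of heparan sulfate synthesis, has been proposed as a Reg receptor.

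The libraries are RNA-seq of sorted pancreatic cells from C57BL/6 mice, taken on postnatal day 2. The YFP+ fraction is called mesenchymal and the YFP- fraction non-mesenchymal, and the latter mixes acinar, endocrine, ductal, blood and other cells. For the deletion of Igf2, non-mesenchymal cells came from 4 controls (Igf2+/+; Nkx3.2Cre/+) and 3 mutants (Igf2+/fl; Nkx3.2Cre/+). In the H19DMD model, each fraction is represented by 3 of its 4 controls (H19DMD+/+; Nkx3.2+/Cre) and 4 mutants (H19DMDfl/+; Nkx3.2+/Cre). All groups, controls included, therefore carried the Cre allele at Nkx3.2, a gene of the gut and pancreatic mesenchyme. Igf2 is an imprinted growth factor gene and H19DMD is the imprinting control region that Igf2 shares with H19. The deletions take place in mesenchymal cells, and the sort was meant to keep them out of the non-mesenchymal fraction; how free of them that fraction was has not been tested.

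Values were FPKM (fragments mapped to a gene, scaled to transcript length and library size), which allow levels of different genes to be set side by side. Of the 31 samples, 21 libraries had values in the tables used, and the 8 mesenchymal samples of the Igf2 model and 1 control of each H19DMD fraction were not analysed here. Depth, estimated from how finely low values were graded, varied 2.14-fold among the 14 H19DMD libraries and 2.58-fold among the 7 Igf2 libraries. By the same estimate 1 read on Reg2 was worth about 0.235 to 0.805 FPKM. In the H19DMD model, Igf2 itself was 3648 to 4024 FPKM in control and 6162 to 7923 FPKM in mutant mesenchymal libraries, with no overlap, and H19 was 2437 to 2454 against 565 to 835 FPKM. In non-mesenchymal libraries Igf2 was 45.2 to 53.2 FPKM in H19DMD controls and 45.4 to 157 FPKM in H19DMD mutants, and 71.5 to 144 FPKM in controls and 24.97 to 147 FPKM in mutants of the Igf2 model. In the same libraries the 13 mesenchymal marker genes summed to 185 to 505 FPKM, against 5871 to 7579 FPKM in the mesenchymal fraction. Nothing in the labels says whether libraries of a group came from separate animals, so the p-values measure the spread between these libraries.

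All members except Reg4 lie in a 98.0-kb cluster on mouse chromosome 6, in which they are the only protein-coding genes of the GENCODE M21 annotation (GRCm38). From the lower to the higher coordinate the cluster holds Reg3b (ENSMUSG00000071356, chr6:78370885-78373466, plus strand), Reg3d (ENSMUSG00000068341, chr6:78375874-78378865, minus strand), Reg3a (ENSMUSG00000079516, chr6:78380709-78383839, plus strand), Reg2 (ENSMUSG00000023140, chr6:78405155-78408097, plus strand), Reg1 (ENSMUSG00000059654, chr6:78425983-78428666, plus strand) and Reg3g (ENSMUSG00000030017, chr6:78466269-78468872, minus strand). Reg4 (ENSMUSG00000027876, chr3:98222156-98236748, plus strand) is on another chromosome. The main transcripts of the 6 clustered genes were 62.7 to 78.9% identical in pairwise alignment, with Reg1 and Reg2 the closest pair. None of the 50-base stretches of any member, the length of a read here, occurred in a transcript of another gene. Exact reads of 1 member could therefore not be assigned to another, although reads with mismatches were not examined.

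The start of each gene shows how the cluster's promoters differ. All 7 members matched 1 promoter each in RefSeq (GRCm38.p6). The window from 40 to 11 bases before the annotated start is printed 5′ to 3′ on the gene's own strand. Any TATAAA, a core element, is in capitals. It did not follow level in the family: Reg1, the highest member, had it and Reg3d, the second highest, did not. Reg2, Reg3b and Reg3g had it too. Their means over the non-mesenchymal libraries were 4.46, 4.48 and 1.18 FPKM, against 18.1 FPKM for Reg3d. These are the starts RefSeq gives; GENCODE M21 holds several starts for some members, the farthest of Reg1 being at position 78422711, and the printed windows of Reg1 and Reg3b overlap an exon of an M21 transcript of the same gene.
Reg1, chr6:78425943-78425972: ccctgatgtaTATAAAaggcctaccttttc
Reg2, chr6:78405115-78405144: acctgttgcaTATAAAagacctaccattac
Reg3b, chr6:78370845-78370874: tcaaattctgtTATAAAaacacagtcatct
Reg3g, chr6:78468885-78468914: cctcaagtcctacTATAAAaacagtcatct
Reg3d, chr6:78378876-78378905: tcttcacttgcatggccctacttcagatgt
Reg3a, chr6:78380669-78380698: tcacccagacttaaataagcattcacttaa
Reg4, chr3:98222116-98222145: acaagaaggtataagagctgcaggactcta

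Searched over 250 bases before the start and on both strands, TATAAA was found in 4 of 7 members and in 12.4% of the 32851 promoters of the table. The E-box letters CACCTG or CAGCTG, 1 part of the element that the acinar factor complex PTF1 binds, were found in 5 members (27.7% of all promoters), and its other part, the TC-box TTTCCC, in 4 (21.9%). Both occurred together in Reg3b and Reg3d (5.91%). The STAT letters TTCNNNGAA were found in the same pair of genes (7.02%), and AAGGTCA, the letters of the acinar factor NR5A2, in none (4.08%). The STAT match of Reg3d shares bases with its farther TC-box. A match in these windows is a description of the letters and not a binding site.

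Reg1 and Reg3d, whose levels are compared below, are printed from 250 to 54 bases before the start, with E-box and TC-box letters in capitals. Reg1 held a single TC-box, 211 bases before its start and on the opposite strand, and Reg3d held 2 of each element.
Reg1, chr6:78425733-78425929: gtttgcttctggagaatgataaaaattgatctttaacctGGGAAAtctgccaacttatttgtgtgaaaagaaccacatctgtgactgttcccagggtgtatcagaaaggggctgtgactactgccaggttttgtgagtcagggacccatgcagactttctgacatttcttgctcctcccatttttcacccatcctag
Reg3d, chr6:78378919-78379115: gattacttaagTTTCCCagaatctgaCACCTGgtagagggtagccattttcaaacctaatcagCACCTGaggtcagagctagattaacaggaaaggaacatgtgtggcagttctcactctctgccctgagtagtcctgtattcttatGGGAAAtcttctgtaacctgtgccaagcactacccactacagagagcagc

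Reg1 made up nearly all of the family's RNA. It held 96.5 to 98.9% of the summed Reg FPKM in the 14 non-mesenchymal libraries, and its level ranked between 13th and 91st of 21172 protein-coding genes, with a median rank of 29. Reg3d came second at 5.11 to 43.3 FPKM. Reg2 and Reg3b ranged from 0 to 37.9 and from 0 to 25.3 FPKM and were listed at 0 in 3 and 4 of these libraries. Reg3g, an antibacterial lectin of the gut, did not exceed 3.84 FPKM and was listed at 0 in 5 of them. Reg4, a member known from enteroendocrine and goblet cells, was above 0 in 3 libraries, at 0.821, 1.26 and 0.238 FPKM. Reg3a was above 0 in 1, at 0.999 FPKM, which is worth about 5.34 reads. An exact 0 in such tables can be a failed estimate as well as an absence of reads. Markers of gut epithelium were low in the same libraries: 20 intestinal genes summed to 11.2 to 81.9 FPKM and 8 gastric genes to 0.132 to 9.26 FPKM.

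**Figure D1:**
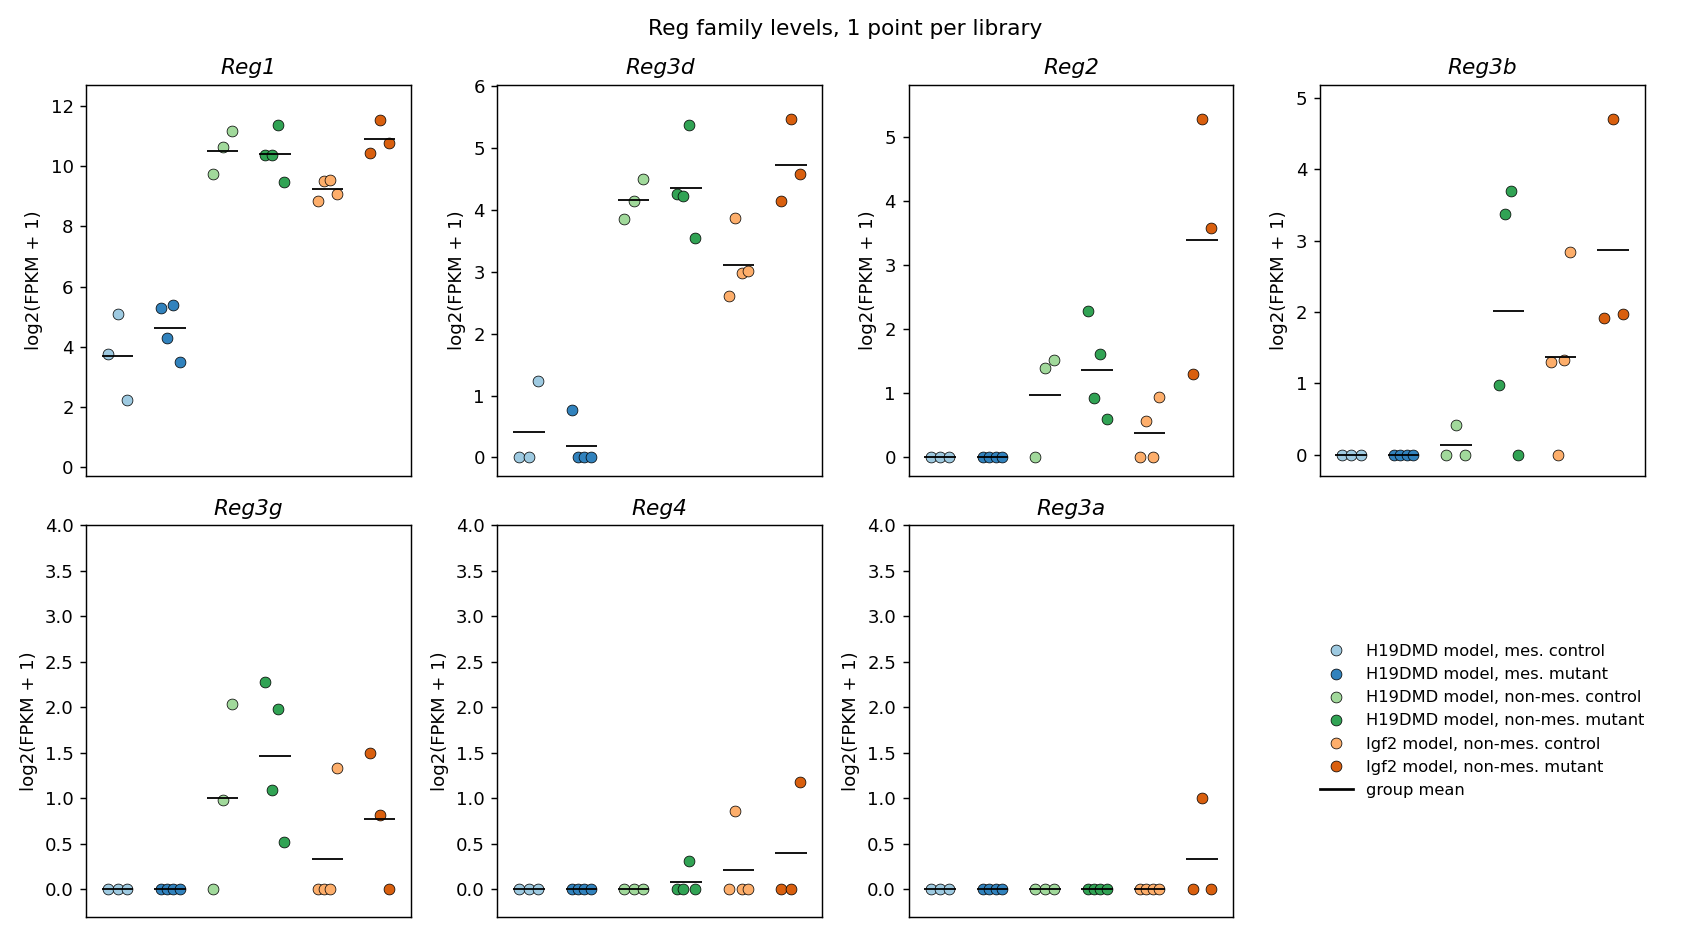
Level of each of the 7 Reg genes as log2(FPKM + 1) on the vertical axis, with 1 point per library and a line at each group's mean, for the 4 groups of the H19DMD model and the 2 groups of the Igf2 model (mes. is mesenchymal). Vertical scales differ between panels. Reg1 and Reg3d were present in every non-mesenchymal library, and in the Igf2 model the mutants lay above the controls for Reg1, Reg3d and Reg2.

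With Igf2 deleted in the mesenchyme, Reg1 of non-mesenchymal cells read 455, 728, 742 and 546 FPKM in the 4 controls and 1393, 2999 and 1746 FPKM in the 3 mutants. Every mutant library was above every control, and the means were 618 ± 141 (SD, n = 4) and 2046 ± 844 FPKM (SD, n = 3), a 3.31-fold difference. On the log2(FPKM + 1) scale the difference was 1.68 ± 0.31 (SE), with a 95% interval from 0.94 to 2.41, but it did not pass the threshold after Benjamini-Hochberg adjustment over all genes in limma (adjusted p = 0.582). The two-sided exact permutation p for Reg1 alone was 0.0286, the smallest that 4 against 3 libraries allow. Of the 17441 genes tested, limma called 11, or 0.0631%, at an adjusted p under 0.05, and none was a Reg gene. Without adjustment, 921 of the 17441 genes had a p under 0.05, Reg1, Reg2 and Reg3d among the 4 Reg genes tested. Reg2, with a mean of 0.343 FPKM in controls and 16.8 FPKM in mutants, passed the filter of a mean of 1 FPKM only through the mutants, which fixed its direction. Reg3a, Reg3g and Reg4 had a mean under 1 FPKM and were not tested.

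Reg3d, a close relative of the hamster islet neogenesis-associated protein, read 5.11, 13.6, 6.90 and 7.02 FPKM in controls and 16.6, 43.3 and 23.0 FPKM in mutants. Again no control reached the lowest mutant. The mean was 8.16 ± 3.73 (SD, n = 4) in controls and 27.6 ± 13.96 FPKM (SD, n = 3) in mutants, 3.39-fold apart. The log2 difference was 1.61 ± 0.41 (SE), with a limma adjusted p of 0.919. Its exact permutation p was 0.0571.

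Reg2, the nearest relative of Reg1, read 0, 0.467, 0 and 0.904 FPKM in controls and 1.46, 37.9 and 10.97 FPKM in mutants. The groups did not overlap, but the mutants themselves spread over a wide range, and the lowest of them was 1 or 2 reads' worth above the highest control. The log2 difference was 3.02 ± 0.87 (SE; limma adjusted p = 0.919), and it was 2.07 without the highest mutant library and 4.06 without the lowest. Over all alternative settings this difference was at most 4.98. Reg3b read 1.46, 0, 1.51 and 6.15 FPKM in controls and 2.78, 25.3 and 2.92 FPKM in mutants. These groups overlapped, since 1 control was above 2 of the 3 mutants, and the log2 difference of 1.50 ± 0.89 (SE; limma adjusted p = 0.919) fell to 0.58 without mutant replicate 2. Over all alternative settings this difference was at most 2.43.

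Mutant replicate 2 was the highest of the 7 libraries for Reg1, Reg2, Reg3b, Reg3d and Reg3a, and it was also the deepest. Without it the log2 difference of Reg1 was 1.36 and that of Reg3d 1.24. Of the 4 members tested, Reg1, Reg3d and Reg2 were higher in all mutants than in all controls, as were 2.65% of all genes tested. Since Reg2 was tested only because of its mutant values, this count is a description. Reg3g, at 0, 0, 0 and 1.51 FPKM in controls and 1.83, 0.764 and 0 FPKM in mutants, was within a few reads' worth of 0 throughout.

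The digestive enzyme genes of acinar cells differed in the same direction. All 25 enzyme genes tested, of the 26 on the list, had a positive log2 difference, 24 of them without overlap, and their median was 1.23 against -0.03 over all genes. None of the 25 passed the limma threshold. The list's mean log2(FPKM + 1) was 8.04 ± 0.32 (SD, n = 4) in controls and 9.25 ± 0.10 (SD, n = 3) in mutants. Cpa1, a carboxypeptidase and a defining acinar marker, was 525 to 868 FPKM in controls and differed by 1.20 ± 0.24 (SE) on the log2 scale. In bulk cells, more acinar cells in the fraction and more RNA per acinar cell cannot be told apart.

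Members were therefore also compared after subtracting the enzyme list's mean log2 value in the same library. Reg1 was then 0.47 higher in mutants on the log2 scale (two-sided exact permutation p = 0.0857), Reg3d 0.40 higher (exact p = 0.371), Reg2 1.81 higher (exact p = 0.171) and Reg3b 0.29 higher (exact p = 0.857). Without mutant replicate 2 the values were 0.21 for Reg1, 0.09 for Reg3d, 0.92 for Reg2 and -0.57 for Reg3b. Without mutant replicate 1 they were 0.66 for Reg1, 0.66 for Reg3d and 2.81 for Reg2, and with a pseudocount of 0.1 Reg2 was 3.65 higher. None of these 4 differences was larger than the spread between libraries by this test. Expressed as a percentage of the summed enzyme FPKM, Reg1 was 1.09 to 1.42% in controls and 1.16 to 2.31% in mutants, and these ranges overlapped.

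**Figure D2:**
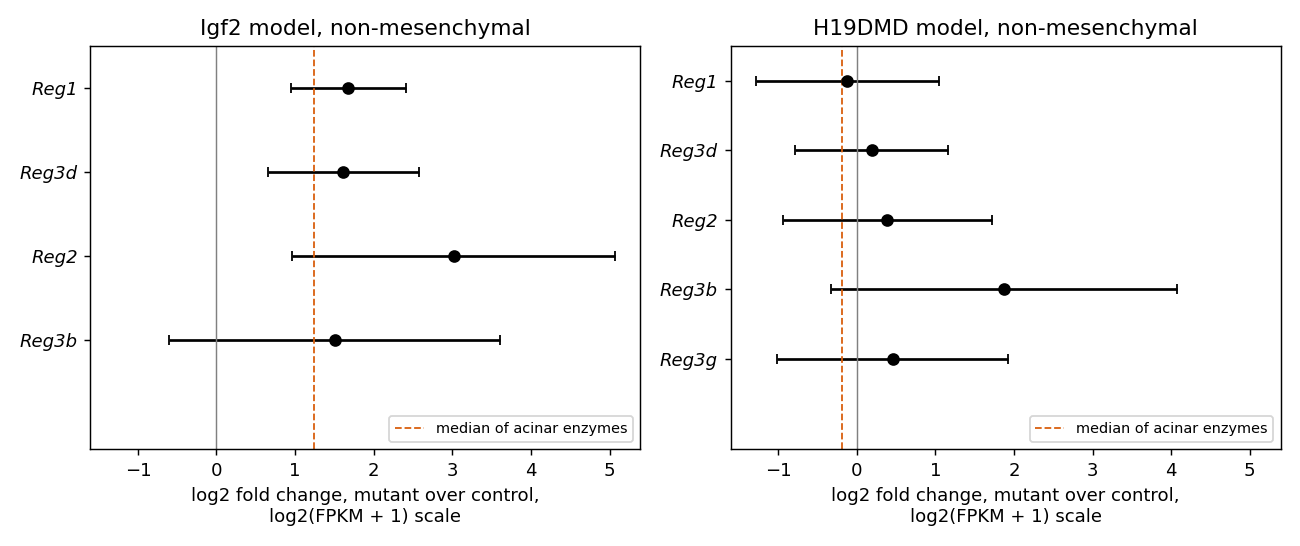
Difference between mutant and control non-mesenchymal libraries for each Reg gene tested, as a log2 fold change on the log2(FPKM + 1) scale; points are limma estimates and bars their 95% intervals. The dashed line is the median over the acinar enzyme genes, 1.23 in the Igf2 model and -0.18 in the H19DMD model, and it lies within the interval of every member in both panels.

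Other lists in the same comparison gave no call. The 10 leukocyte markers all had positive differences (median 0.47, 1 without overlap), and 8 of 10 ductal markers had negative ones (median -0.38, 2 without overlap). The share of all genes that were lower in mutants without overlap was not counted in either model. Of 9 acute-phase and stress genes 5 had positive differences (median 0.28), and 3 of them were higher in mutants without overlap. All 7 erythroid markers were lower on average (median -0.55, none without overlap). Of 18 endocrine markers 14 had positive differences (median 0.22), and of 10 mesenchymal markers 7 had negative ones (median -0.09), none without overlap. Their part in the Reg differences was not tested. Of the 18 gp130 and STAT3 genes tested, 10 had positive and 8 negative differences (median 0.26). Without overlap, 2 were higher and 1 lower in mutants. Stat3 itself differed by -0.38 ± 0.24 (SE), and Socs3, a feedback inhibitor that STAT3 induces, by 0.22 ± 0.25 (SE). The acinar transcription factors were split 3 to 3, and 1 of them was lower in mutants without overlap. Ptf1a differed by -0.08 ± 0.46 (SE) and Rbpjl, its partner in the mature PTF1 complex, by 0.97 ± 0.46 (SE; limma adjusted p = 0.919). Extl3 was 10.7 to 16.5 FPKM in controls and 10.5 to 16.7 FPKM in mutants. It was listed with other reported inducers of Reg genes. Of the 14 genes of that list tested, 11 had positive differences (median 0.21), and 2 were higher in mutants without overlap. The lowest limma adjusted p among them was 0.789.

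In the H19DMD model the non-mesenchymal mutants and controls overlapped for all 7 members, while over all genes 3.47% were higher in every mutant without overlap. Reg1 read 862, 1609 and 2292 FPKM in controls and 1322, 1340, 2638 and 717 FPKM in mutants. The highest and the lowest of these 7 libraries were both mutants. Its log2 difference was -0.12 ± 0.50 (SE), with a 95% interval from -1.29 to 1.05 (limma adjusted p = 0.977). The interval includes a change of more than 2-fold in either direction, so no difference was detected at this spread. Of the 16239 genes tested limma called 11, or 0.0677%, and none of the 5 Reg genes tested. None of the 5 had an unadjusted p under 0.05 either, which 868 of the 16239 genes had.

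Reg3d read 13.4, 16.6 and 21.5 FPKM in controls and 18.0, 17.7, 40.3 and 10.7 FPKM in mutants, a log2 difference of 0.19 ± 0.41 (SE). The mutants again held both extremes. Reg2 read 0, 1.61 and 1.87 FPKM in controls and 3.86, 0.899, 2.05 and 0.510 FPKM in mutants. Reg3g read 0, 0.973 and 3.10 FPKM in controls and 3.84, 1.13, 2.95 and 0.433 FPKM in mutants. Both were low, and their groups were interleaved.

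Reg3b had the largest standard error of the 5 on the log2(FPKM + 1) scale. It read 0, 0.334 and 0 FPKM in controls and 0.970, 9.36, 12.01 and 0 FPKM in mutants. Of the 4 mutants 3 were above all controls, and the fourth was listed at 0. The log2 difference was 1.87 ± 0.93 (SE; limma adjusted p = 0.894), with an exact permutation p of 0.257. Over all alternative settings this difference ranged from 1.31 to 3.52. Reg3b averaged 0.111 FPKM in controls and 5.58 FPKM in mutants and so passed the filter only through the mutants, which fixed its direction. The mutants with 9.36 and 12.01 FPKM of Reg3b had 1340 and 2638 FPKM of Reg1, so a high Reg3b did not go with 1 level of Reg1.

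The enzyme genes had a median difference of -0.18 in this comparison, with 5 of 24 positive, against 0.05 over all genes. Relative to them Reg1 differed by 0.04 (two-sided exact permutation p = 0.914), Reg3d by 0.35 (exact p = 0.371), Reg2 by 0.54 (exact p = 0.371), Reg3g by 0.62 (exact p = 0.257) and Reg3b by 2.03 (exact p = 0.2). With each library left out in turn, Reg3d ranged from 0.18 (without mutant replicate 3) to 0.61 (without mutant replicate 4). Reg2 ranged from 0.19 to 0.79 and Reg3g from 0.31 to 0.92, each lowest without mutant replicate 1 and highest without mutant replicate 4. With a pseudocount of 0.1 the values were 1.30 for Reg2, 1.44 for Reg3g and 3.70 for Reg3b. All 7 erythroid markers had positive differences (median 1.70, none without overlap), and 8 of 9 mesenchymal markers did (median 0.28). So did 7 of 9 acute-phase and stress genes (median 0.47, 1 without overlap) and 8 of 10 ductal markers (median 0.30, 1 without overlap). Of 18 endocrine markers 14 had negative differences (median -0.21, 2 without overlap). So did 14 of the 18 gp130 and STAT3 genes tested (median -0.09, none without overlap). None of these genes was called by limma, and their part in the Reg values was not tested. Whether the mutant effect on Reg genes differed between both models was not tested, since the tables were normalised separately.

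Over all non-mesenchymal libraries, which pool both models and genotypes, the ratio of Reg1 to Reg3d ranged less than either level. Over these 14 libraries Reg1 spanned a 6.60-fold and Reg3d an 8.48-fold range, and their ratio stayed between 53.6 and 108, a 2.01-fold range with a median of 76.0. The ratio was 82.0 ± 22.6 (SD, n = 4) in Igf2 controls and 76.4 ± 7.41 (SD, n = 3) in Igf2 mutants. In the H19DMD model it was 89.4 ± 22.2 (SD, n = 3) in controls and 70.3 ± 5.06 (SD, n = 4) in mutants. These groups overlapped in both models. Within the control groups the ratio ranged as widely as a level did: 2.01-fold in Igf2 controls, where Reg1 ranged 1.63-fold, and 1.66-fold in H19DMD controls, where Reg3d ranged 1.61-fold. In the mutant groups it ranged 1.21-fold in the Igf2 model and 1.16-fold in the H19DMD model, with Reg1 at 2.15-fold and 3.68-fold. In the upstream letters searched, Reg1 had TATAAA and no E-box, and Reg3d had E-boxes and no TATAAA. Both had the TC-box, with 1 match in Reg1 and 2 in Reg3d. Whether these letters bear on the ratio was not tested. Their transcripts shared no run of bases longer than 14.

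**Figure D3:**
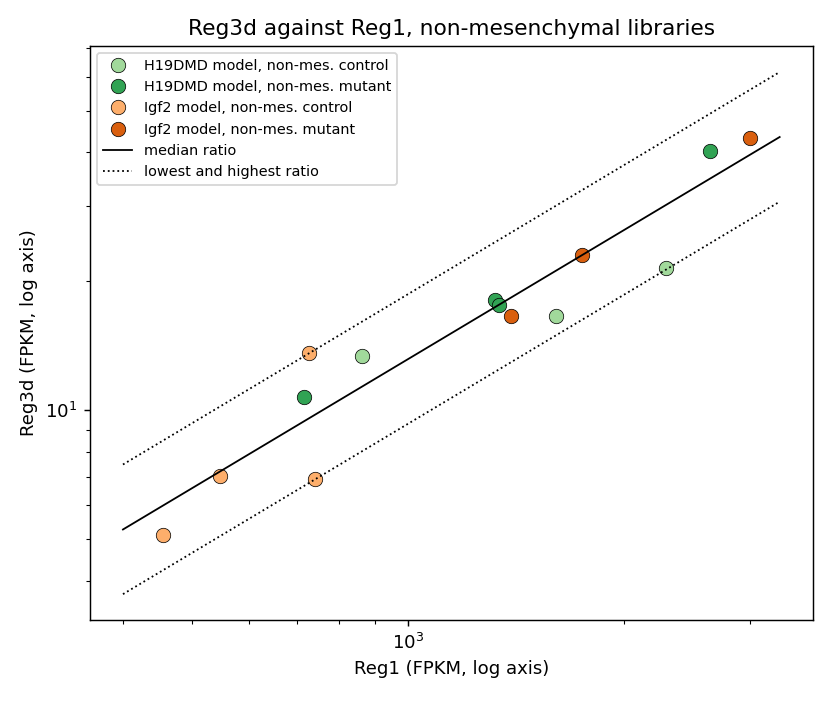
Reg3d against Reg1 in the 14 non-mesenchymal libraries, both in FPKM on log axes, coloured by model and genotype. The solid line marks the median ratio of 76.0 and the dotted lines the lowest and highest ratio, 53.6 and 108; mutants of the Igf2 model lie at the upper right of their controls.

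The genes whose pattern was most like each member's were looked for among 6110 genes with at least 10 FPKM in both tables. Likeness was Pearson's r of log2(FPKM + 1) over the 14 non-mesenchymal libraries after subtracting each table's mean, and is given as a description. These libraries share their model's group difference and the acinar part of the fraction. For Reg1 the closest genes were Reg3d (r = 0.942), the trypsinogen gene Prss3 (0.928) and the trypsin inhibitor gene Spink3 (0.927). For Reg3d they were Reg1, Spink3 (0.887) and the lipase-related gene Pnliprp1 (0.852). The median r over all candidates was 0.01 for Reg1. With each library measured from its own group's mean, so that no group difference entered, Reg1 and Reg3d still had r = 0.891 over 14 libraries, Reg1 had 0.750 with the enzyme list's mean, and Reg3d had 0.598.

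Reg2 and Reg3b did not have an enzyme gene among their 3 closest. For Reg2 these were the ribosomal protein gene Rps14 (r = 0.884), Tmem97 (0.846) and Reg3d (0.845). For Reg3b they were Jhdm1d (0.819), the small nucleolar RNA SNORA17 (0.786) and the ribosomal protein gene Rpl24 (0.779). With the mean of the enzyme list, r was 0.897 for Reg1, 0.817 for Reg3d, 0.709 for Reg2 and 0.244 for Reg3b. Values of Reg2 and Reg3b near 0 rest on few reads, so these numbers are less precise than those of Reg1.

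In the H19DMD model Reg1 differed more between the fractions than between genotypes. In mesenchymal controls Reg1 read 12.4, 33.2 and 3.73 FPKM, against 862 FPKM or more in the non-mesenchymal controls. The means of 16.5 ± 15.1 (SD, n = 3) and 1588 ± 715 FPKM (SD, n = 3) were 96.5-fold apart, or 196-fold without mesenchymal control replicate 2. The log2 difference was 6.83 ± 0.77 (SE; limma adjusted p = 0.00187), and 6.10 to 7.53 with each library left out in turn. The exact permutation p was 0.1, the smallest that 3 against 3 libraries allow. Reg3d was listed at 0 in 2 mesenchymal controls and read 1.36 FPKM in the other, and its log2 difference was 3.75 ± 0.41 (SE; limma adjusted p = 0.00172). Over all alternative settings this difference ranged from 3.54 to 6.11. Both members tested were called higher in non-mesenchymal cells, as were 10.3% of all genes (22.6% were called in either direction). Reg3d passed the filter on low values only through the non-mesenchymal group, which fixed its direction, so its difference is a description here and in the mutants.

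In mutants Reg1 read 38.1, 18.8, 40.5 and 10.2 FPKM in mesenchymal cells, and the non-mesenchymal mean was 55.9-fold higher. The log2 difference was 5.79 ± 0.52 (SE; limma adjusted p = 8.38e-05; two-sided exact permutation p = 0.0286). Reg3d was listed at 0 in 3 of the 4 mesenchymal mutants and read 0.694 FPKM in the other, with a log2 difference of 4.16 ± 0.39 (SE; limma adjusted p = 0.000112). Over all alternative settings this difference ranged from 3.82 to 6.85. Reg3g was listed at 0 in all 4 and between 0.433 and 3.84 FPKM in non-mesenchymal mutants (limma adjusted p = 0.0357). This call was lost when any 1 of the 4 mesenchymal mutants or non-mesenchymal mutant replicate 2 was left out (adjusted p = 0.0502 to 0.0695). Without non-mesenchymal mutant replicate 1 or 3 the mean of Reg3g fell under the 1 FPKM filter and it was not tested, so of the 8 libraries only non-mesenchymal mutant replicate 4 could be left out with the call kept (adjusted p = 0.0127). A fit with a block for replicate number also lost this call (limma adjusted p = 0.0750). Reg3b, listed at 0 in all mesenchymal libraries, was not called (limma adjusted p = 0.104), though it was without non-mesenchymal mutant replicate 4 (adjusted p = 0.0242). In all, 3 of 4 members tested were called higher in non-mesenchymal mutants, against 15.1% of all genes (28.6% in either direction). Reg3b, Reg3d and Reg3g passed the filter on low values only through the non-mesenchymal group, which fixed their direction, so this count is a description. Reg2, Reg3a and Reg4 were listed at 0 in all 7 mesenchymal libraries.

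The mesenchymal level of Reg1 was 1.04% of the non-mesenchymal level in controls and 1.79% in mutants. For 24 acinar enzyme genes the same percentage was 0 to 2.28% in controls, with a median of 1.50%, and 1.01 to 3.78% in mutants, with a median of 1.90%. In controls Reg1 was below 23 of the 24 enzymes and above 1, and in mutants it was above 9 of them. The control value depended on single libraries. The non-mesenchymal mean of Reg1 was 96.5-fold higher with all controls. It was 196-fold higher without mesenchymal control replicate 2 and 69.6-fold without replicate 3. The order against the enzymes was not worked out again for these sets. Summed over the list, the enzymes were 772 to 2357 FPKM in mesenchymal libraries. Ptf1a was listed at 0 in all 7 of them. The part of acinar RNA in the mesenchymal Reg1 values was not tested.

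**Figure D4:**
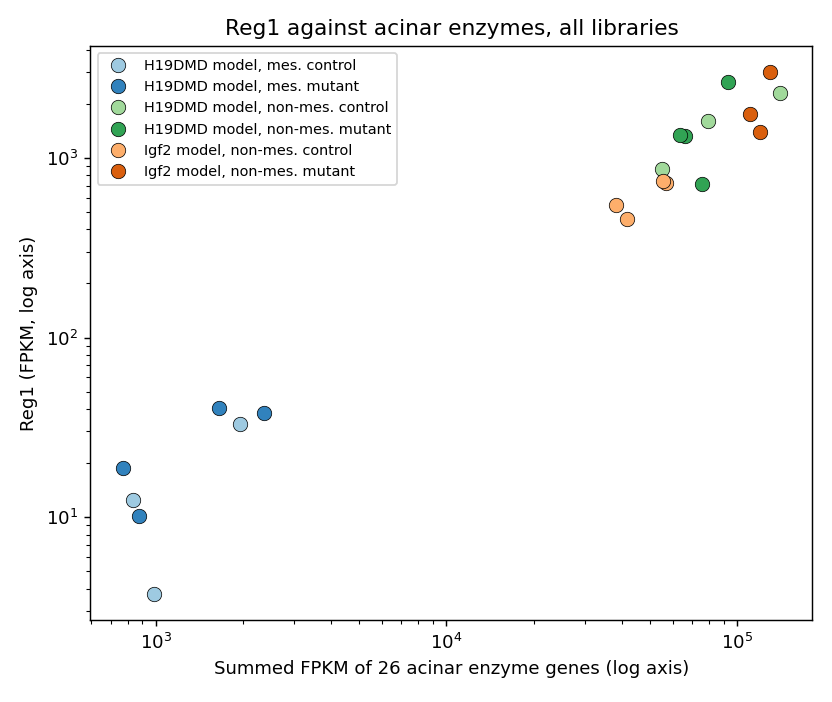
Reg1 against the summed FPKM of 26 acinar enzyme genes in all 21 libraries, both on log axes, coloured by model, fraction and genotype. Mesenchymal libraries lie at the lower left with 772 to 2357 FPKM of enzymes, and non-mesenchymal ones at the upper right with 38324 FPKM or more.

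Between genotypes, mesenchymal Reg1 differed by 0.92 ± 0.74 (SE) on the log2 scale, with a 95% interval from -0.84 to 2.68 (limma adjusted p = 0.927; two-sided exact permutation p = 0.314). The difference was 0.19 without control replicate 3 and 1.62 without control replicate 2. The groups overlapped, and each held libraries near 10 and above 30 FPKM. Reg1 was the only member tested there, where limma called 11 of 15856 genes, or 0.0694%. The unadjusted p of Reg1 was 0.257. A test of whether the H19DMD mutant effect differed between fractions called 2 of all genes, or 0.0117%, and none of the Reg genes in the fit. The difference of effects, non-mesenchymal minus mesenchymal, was -1.04 ± 0.95 (SE) for Reg1, with an unadjusted limma p of 0.297. It was -1.74 without mesenchymal control replicate 2 and -0.31 without mesenchymal control replicate 3. Reg3d and Reg3b were also in that fit, but with mesenchymal values listed at 0 in 5 and in all 7 libraries it does not compare effects for them, and their values are not given.

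Genes of the pathway that induces Reg3 members in injury were called in both directions between fractions. Of 19 gp130 and STAT3 genes tested between control fractions, 4 were called higher and 7 lower in non-mesenchymal cells, and between mutant fractions 3 were higher and 8 lower. Over all genes, 10.3% were called higher and 12.4% lower in non-mesenchymal controls, and 15.1% higher and 13.5% lower in non-mesenchymal mutants. Il6st, which encodes gp130 itself, was 81.8 to 103 FPKM in mesenchymal and 17.2 to 22.5 FPKM in non-mesenchymal controls, a log2 difference of -2.16 ± 0.18 (SE; limma adjusted p = 0.000617). Socs3 was 46.1 to 56.2 FPKM in mesenchymal and 6.76 to 12.8 FPKM in non-mesenchymal controls (limma adjusted p = 0.00236). Both belong to the 7 genes that were lower. Of the 6 acinar transcription factors 4 were called higher in non-mesenchymal controls and none lower. Among the 6, 3 averaged under 1 FPKM in mesenchymal controls, Ptf1a and Rbpjl included, and passed the filter only through the other fraction, which fixed their direction. Nr5a2, a nuclear receptor that acts on acinar genes, was 21.5 to 27.2 FPKM there and 0.580 to 1.65 FPKM in mesenchymal controls (limma adjusted p = 0.00039). Extl3 was 8.21 to 19.1 FPKM over all libraries of both fractions of the H19DMD model and was called in no comparison.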

How the data were processed

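The authors deposited 1 FPKM table per model. Per the submitters' processing notes, TopHat2 2.0.8, Cufflinks 2.2.1 and the GRCm38 build were used; use of strand and scaling between libraries are not given in the sources used here. Per the labels' protocols, 2 ng of RNA was amplified and sequenced as single 50-base reads. Columns were matched to samples by library names in the labels; 10 of 31 samples were not analysed here. The FPKM values do not give exact reads: 41.0 to 78.1% of low values lay within 0.15 of a whole read, so depths are approximate and no count test was run.

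Testing was restricted to genes averaging 1 FPKM or more in the libraries of a comparison and used limma 3.58.1 (R 4.3.3; lmFit, eBayes with trend, two-sided) on log2(FPKM + 1), which understates changes of low genes, with Benjamini-Hochberg adjustment over all genes and a threshold of 0.05. Only the groups compared entered a fit, and the script was tested on simulated data. Exact permutation tests covered all relabellings of libraries. Alternatives were a pseudocount of 0.1, no filter, a filter at 5 FPKM, median-ratio scaling, no variance trend, a replicate block and leaving out each library. Library names in the labels carry a different prefix in each model and the tables were normalised separately, so model and table cannot be told apart. All members were named in every comparison, likeness took the 3 genes with the highest r, and from other lists only a few fixed genes were named. The members and lists were chosen with earlier results of these data known. Promoters are from RefSeq and transcripts from GENCODE M21.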

Additional observations from a re-analysis of the deposited data

How the results depend on the processing

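No Reg gene was called between genotypes under any alternative run. Between fractions, 2 were called in controls under all 12 alternatives, and in mutants 2 to 4 against 3 (10.3% and 15.1% of all genes were called higher there). Of these only Reg1 passed the filter through both fractions. Differences of Reg genes that were not called changed sign in the H19DMD non-mesenchymal comparison. With each library left out in turn, Reg1 ranged from -0.50 to 0.20 (positive without control replicate 3 or mutant replicate 4, at 0.20 and 0.19), Reg2 from -0.10 to 0.66 and Reg3g from -0.043 to 0.98 (both negative without control replicate 1), and Reg3d from -0.15 to 0.46 (negative without mutant replicate 3). Relative to the enzymes, Reg1 there ranged from -0.11 to 0.33 (negative without control replicate 1 or mutant replicate 2 or 3, at -0.05, -0.08 and -0.11). In the Igf2 model Reg3b relative to the enzymes ranged from -0.57 to 0.91 (negative without control or mutant replicate 2, at -0.24 and -0.57). Each rests on fewer libraries. Leaving out each library in turn, a count added after the data were seen, gave 3 to 4 members without overlap in the Igf2 model against 3, and 0 to 1 in the H19DMD model against 0, the 1 being Reg3b without mutant replicate 4. The same held for 4.04 to 6.52% and 4.76 to 9.39% of all genes. Reg2 in the first model and Reg3b in the second passed the filter only through the mutants, which fixed their direction.

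Between genotypes, deviations of same-numbered libraries correlated at -0.05 to 0.03 and those of different-numbered ones at -0.07 to 0.07. Between fractions, same-numbered libraries correlated at 0.01 to 0.07, all positive, and different-numbered ones at -0.06 to 0.03. Whether replicate numbers pair libraries between fractions could not be decided from values this small. Each library correlated best with its own number for 0 of 3 controls in the Igf2 model, 0 of 3 and 2 of 3 in the H19DMD mesenchymal and non-mesenchymal comparisons, and 2 of 3 control and 3 of 4 mutant libraries between fractions. With the replicate block, 0 members were called between genotypes, 2 between control fractions and 2 between mutant fractions, where Reg3g had an adjusted p of 0.0750 in limma. Between genotypes the block fits held 6 libraries, since replicate 4 had no partner and was left out. Reg1 in H19DMD non-mesenchymal cells was 0.19 there, the same as without mutant replicate 4 alone.

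Over all alternatives the number of genes called was 11 to 37 against 11 in the Igf2 model, 10 to 27 against 11 in H19DMD mesenchymal and 11 to 34 against 11 in H19DMD non-mesenchymal cells, 2448 to 3929 against 3785 and 3148 to 4943 against 4802 between fractions, and 2 to 9 against 2 for the interaction. A member under a filter gave no value there. Depth limits Reg3a, Reg3g and Reg4, whose values were worth at most about 5.34, 11.7 and 5.05 reads.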
